A study of Mus musculus with 8 samples.

Results

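Potassium channel genes were taken as all gene symbols that start with Kcn, except names of antisense or overlapping transcripts. Of 33641 gene symbols in interscapular brown adipose tissue (BAT), 94 were potassium channel genes by this rule, and 0 names had to be left out. They comprised 30 pore-forming voltage-gated subunits, 10 modifier subunits of voltage-gated channels, 17 accessory subunits, 15 inward rectifiers, 14 leak channels of the K2P family and 8 calcium- or sodium-activated channels. At least 3 counts, the level taken here as detected, were found for 72 of the 94 genes in 1 or more libraries and for 31 in all 8 libraries. *Kcna10*, *Kcnh5*, *Kcnk9*, *Kcnk18*, *Kcns2* and *Kcnv1* had no count in any library.

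Potassium channels set the resting membrane potential of a cell and bring the membrane back after depolarization. Voltage-gated pores open on depolarization, inward rectifiers and K2P channels carry current near rest, and other channels open with intracellular calcium or close with ATP. In brown adipocytes, the leak channel *Kcnk3* is known as a brown fat enriched gene, and the membrane potential shapes the entry of calcium after adrenergic stimulation.

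RNA sequencing of BAT was used to compare mice that lacked the RNA binding protein HuR, encoded by *Elavl1*, in adipocytes with controls. All 8 mice were C57BL/6 and 28 weeks of age. The labels give 3 libraries as wild-type (A7, A8 and A12, called control) and 5 as HuR knockout (A24, A25, A26, A29 and A31, called *Adipo-HuR-/-*). In the latter, a floxed HuR allele is recombined by an adiponectin-driven Cre transgene, while controls in the study were littermates that lacked either Cre or the homozygous floxed allele, and the labels do not say which of these each control mouse was. Cre acts in adipocytes, whereas the RNA came from the whole depot with its vessels, nerves and other cells.

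The sums of deposited estimated counts over A7, A8 and A12 were 60622522, 51751002 and 50673814. For A24, A25, A26, A29 and A31 they came to 18264754, 17558090, 67498055, 50893173 and 58727739. A24 and A25 were thus the shallowest libraries, and 3 counts equalled 0.169 and 0.142 CPM (counts scaled to a fixed library total and by the TMM factors of edgeR, which adjust for library composition) there, against 0.0444 CPM in A26. The number of potassium channel genes with at least 3 counts was 60, 51 and 58 in A7, A8 and A12, and 43, 49, 61, 59 and 60 in A24, A25, A26, A29 and A31.

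*Elavl1*, the targeted gene, stood at 50.6, 48.0 and 49.2 CPM in A7, A8 and A12. It stood at 61.9, 47.2, 43.4, 61.3 and 61.1 CPM in A24, A25, A26, A29 and A31. The groups overlapped, with no fall under the *Adipo-HuR-/-* label (log2 fold change 0.16, SE 0.16, Benjamini-Hochberg adjusted p = 0.667 by the quasi-likelihood F test of edgeR). The totals thus did not show the deletion. They cannot decide whether the labels hold, as reads from removed exons and from cells without Cre were not told apart. Groups are named by their labels throughout. A figure legend of the study also gives the sizes of the control and *Adipo-HuR-/-* groups the other way round from the labels. Each direction given here rests on the labels. Which exons the deletion removes was not analysed here.

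Some libraries stood apart by skeletal muscle RNA. *Acta1*, skeletal muscle actin, stood at 619 CPM in A7 and 320 CPM in A8, and *Ckm*, muscle creatine kinase, at 273 and 237 CPM. A31 carried both at a lower level, with 54.0 and 33.2 CPM, and in the other 5 libraries neither gene was above 0.395 CPM. The summed level of 15 skeletal muscle markers was 3570, 2342 and 6.62 CPM in A7, A8 and A12, and 11.8, 4.17, 24.8, 5.04 and 388 CPM in A24, A25, A26, A29 and A31. The most abundant of them was *Myh4*, a fast myosin heavy chain, with a mean of 201 CPM, and *Pvalb* had no count in the 5 libraries other than A7, A8 and A31. All 15 of the 15 markers had lower fitted levels in the libraries labelled *Adipo-HuR-/-*, 1 of them past the threshold (*Myh7*), while their summed level did not pass a two-sided exact permutation test (p = 0.143, 3 against 5 libraries, smallest possible p 0.0357). The control group thus held muscle RNA in A7 and A8 but not in A12.

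The other marker lists differed less between the labels. Summed levels of 9 brown adipocyte markers were 23883 ± 8650 CPM in control libraries (SD, n = 3) and 21602 ± 4833 CPM under the *Adipo-HuR-/-* label (SD, n = 5, exact permutation p = 0.643). They were present in every library, with a lowest sum of 15142 CPM in A25, and *Fabp4* was the most abundant. Sums of 6 endothelial markers were 400 ± 59.5 and 458 ± 84.4 CPM (exact permutation p = 0.357). All 6 had higher fitted levels under the *Adipo-HuR-/-* label, 0 of them past the threshold. Sums of 5 pericyte markers were 344 ± 51.0 and 327 ± 27.4 CPM (exact permutation p = 0.536). Vascular smooth muscle (6 markers, 55.6 ± 7.62 and 55.1 ± 2.52 CPM, exact permutation p = 0.857) and nerve and Schwann cell markers (8 markers, 49.8 ± 10.9 and 43.3 ± 4.62 CPM, exact permutation p = 0.286) were low. Macrophage (6 markers, 29.1 ± 14.2 and 25.4 ± 5.41 CPM, exact permutation p = 0.571) and lymphocyte markers (5 markers, 1.08 ± 0.358 and 1.35 ± 0.504 CPM, exact permutation p = 0.464) were lower still. Adjusted over the 8 lists by the Benjamini-Hochberg method, the smallest of these exact permutation p-values was 0.735.

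Of the 94 potassium channel genes, 48 had enough counts to be tested among 14851 genes. *Kcns3* was the 1 gene among them that passed the threshold, an adjusted p of at most 0.05 and a fold change of at least 1.5, and it was lower in the libraries labelled *Adipo-HuR-/-*. Over all tested genes 105 passed (0.707%), 69 of them lower (0.465%) and 36 higher (0.242%), while 1 of 48 potassium channel genes is 2.08%. A share that rests on 1 gene is not read as a result about potassium channel genes. Without TMM factors the split of all calls turned to 25 lower and 96 higher, as the median over all genes moved by 0.23 on the log2 scale. In that fit, 0 of 48 potassium channel genes passed edgeR's test.

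Fitted levels were lower for 23 and higher for 25 of the 48 tested genes, with a median log2 fold change of 0.04 beside 0.00 for all genes tested. The split was 19 lower and 29 higher without TMM factors, with a median of 0.25 beside 0.23 for all genes. In TMM-scaled CPM, 3 of the 48 genes had groups apart in the lower direction (*Kcns3*, *Kcnj15* and *Kcnq5*) and 1 in the higher direction (*Kcnh2*). The same held for 6.09% of all tested genes in the lower and 5.37% in the higher direction, so these shares were near or under those of all genes. An unadjusted p under 0.05 was reached by 11 of the 48 genes, against 17.0% of all tested genes. Of these 11, *Kcnf1* is named here after its values were seen. It held 3, 2 and 3 counts in A7, A8 and A12, and 0, 4, 24, 13 and 12 counts in A24, A25, A26, A29 and A31. The groups overlapped, with A24 the lowest, and the controls were at or under the level taken as detected, so no fold change is given.

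**Figure D1:**
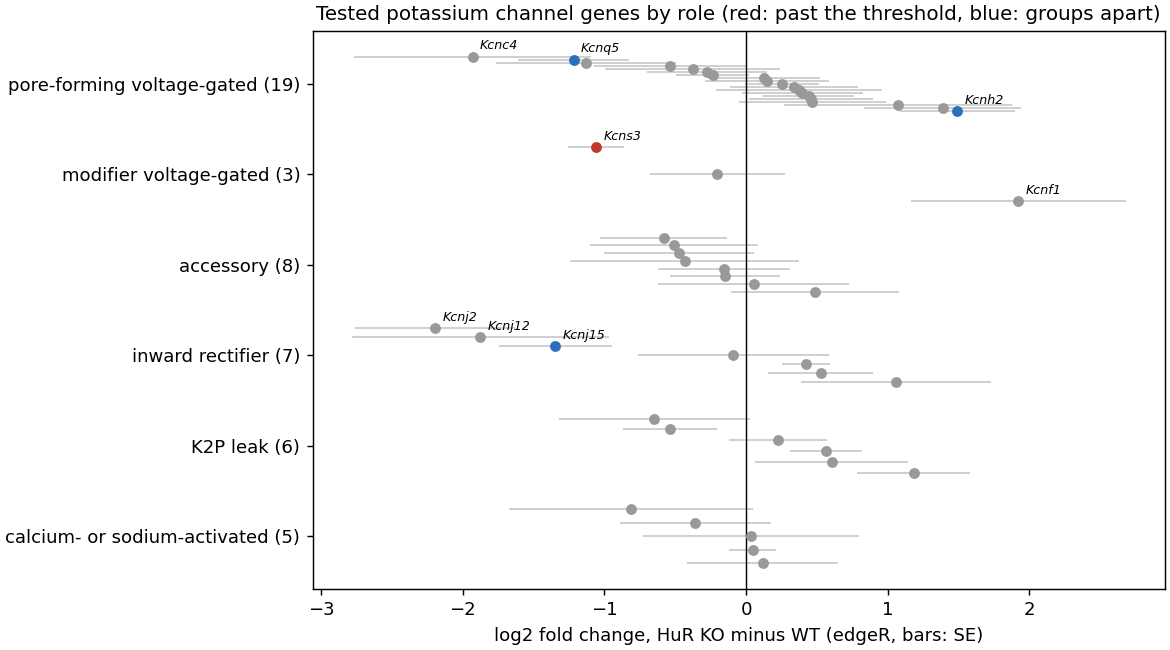
Log2 fold change between the libraries labelled *Adipo-HuR-/-* and control (x axis, edgeR, bars give the SE) for the 48 tested potassium channel genes, by role (y axis, number of tested genes in brackets). *Kcns3*, in red, is the gene past the threshold, and blue points are genes whose groups did not overlap.

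Levels between genes were compared per transcript length, as TPM (transcript counts divided by transcript length and scaled to a fixed library sum), over all 8 libraries. *Kcnk3* led with a mean of 155 ± 55.2 TPM (SD, n = 8), and its range did not overlap that of any other gene. Of the other genes described here, *Kcnj8* (9.07 ± 2.61 TPM), *Kcna5* (4.85 ± 2.89 TPM), *Kcns3* (3.75 ± 1.47 TPM), *Kcnj11* (3.26 ± 1.499 TPM) and *Kcnn1* (2.17 ± 0.30 TPM) had the highest means, and the range of each overlapped that of its neighbour in this order. Within libraries, *Kcnj8* was above *Kcna5* in all 8, while *Kcna5*, *Kcns3* and *Kcnj11* were above the next gene in 4, 5 and 6. *Kcnk4*, *Kcnab3* and *Kcnj15*, with means of 1.18, 1.13 and 1.11 TPM, were not told apart by their spread. *Kcnk3* made up 52.5% of the TPM of all potassium channel genes in A7, 68.8% in A8 and 73.9% in A12. Its share was 72.4%, 67.4%, 74.1%, 70.4% and 82.0% in A24, A25, A26, A29 and A31. A7, which carried the most muscle RNA, had the lowest share and A31 the highest.

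**Figure D2:**
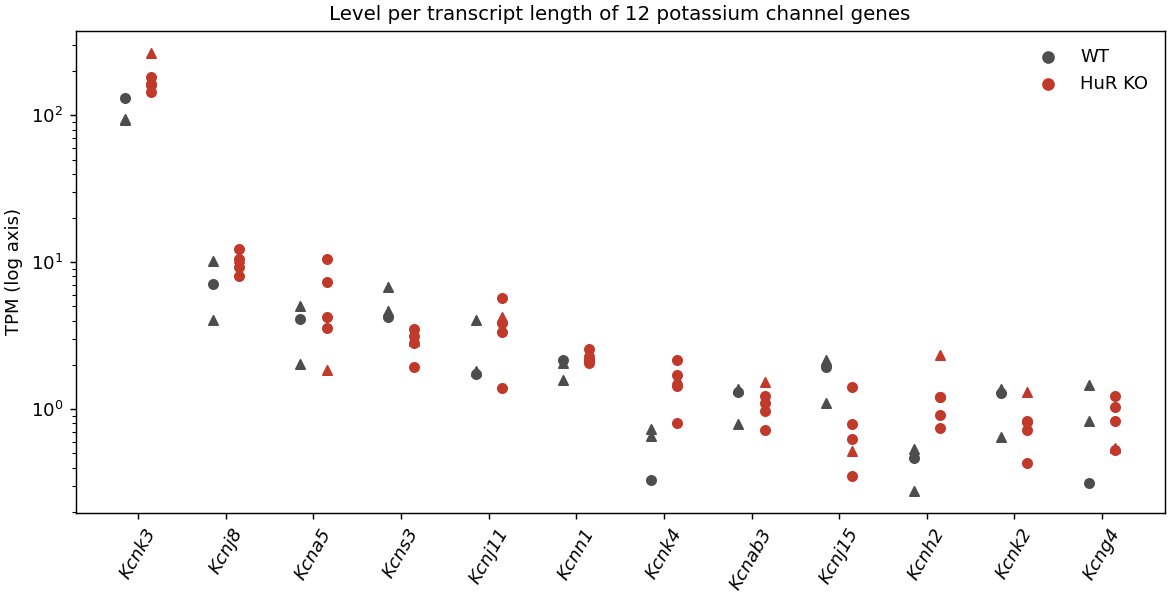
Level per transcript length (TPM, logarithmic y axis) of potassium channel genes named in the text, in the order of their means (x axis), with 1 point per library, control in grey and *Adipo-HuR-/-* labels in red. Triangles mark A7, A8 and A31, and *Kcnk3* lies between 93.2 and 265 TPM, above each of the others.

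The TPM of all potassium channel genes together was 180, 136 and 177 in A7, A8 and A12, and 199, 244, 248, 228 and 324 in A24, A25, A26, A29 and A31. The groups did not overlap on this scale, which uses no TMM factors. Without these factors the median log2 fold change over all genes moved up by 0.23. The share of all genes with groups apart in TPM was not counted. Without *Kcnk3*, the sums were 57.9 ± 23.8 TPM in control libraries (SD, n = 3) and 64.9 ± 9.54 TPM in the others (SD, n = 5), and they overlapped.

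Among the modifier subunits, which do not form channels alone and alter the voltage-gated pores they join, *Kcns3* (ENSMUSG00000043673.11, minus strand of chromosome 12, 11090202 to 11151056 on GRCm38) encodes Kv9.3. It stood at 10.2, 12.02 and 7.48 CPM in A7, A8 and A12, and at 3.83, 5.03, 4.96, 5.34 and 4.54 CPM in A24, A25, A26, A29 and A31. Every control library was above every library labelled *Adipo-HuR-/-*, and A12, without muscle RNA, was the lowest control. The mean was 9.89 ± 2.29 CPM (SD, n = 3) in control libraries and 4.74 ± 0.581 CPM (SD, n = 5) in the others. *Kcns3* thus fell, with a log2 fold change of -1.06 (SE 0.20, Benjamini-Hochberg adjusted p = 0.0474 by the quasi-likelihood F test of edgeR). In whole tissue, fewer cells of a type and less RNA per cell cannot be told apart, and the part of muscle RNA in the difference was not tested, as its markers were at 3570 and 2342 CPM in A7 and A8.

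The call of *Kcns3* lay close to the threshold. With edgeR's adjusted p, it was lost without A7 (0.135), A8 (0.0767), A24 (0.0623), A25 (0.119), A26 (0.0955), A29 (0.0998) or A31 (0.0979), and held without A12 (0.0250). Where it was lost in this way the log2 fold change was between -1.11 (without A29) and -0.89 (without A8) beside -1.06 with all 8 libraries. Without A7 and A8 the log2 fold change was -0.66 (adjusted p = 0.299), and without A31 as well it was -0.64 (adjusted p = 0.424), in fits where A12 was the lone control and was assumed to vary like the other group. With the mean log2 CPM of *Acta1* and *Ckm* as a covariate it was -0.88 (adjusted p = 0.257). It was -0.80 without TMM factors (adjusted p = 0.0970) and -1.01 without A24 and A25 (adjusted p = 0.153). The direction was lower in each of these fits. Over the 18 alternatives tried, the adjusted p of *Kcns3* lay between 0.000165 and 0.424.

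Counts of *Kcns3* were divided between 3 transcripts. ENSMUST00000217974.1 held 55.5%, 86.9% and 94.0% of them in A7, A8 and A12, and 86.8%, 28.6%, 31.8%, 73.8% and 88.6% in A24, A25, A26, A29 and A31. The level of this transcript was 5.65, 10.4 and 7.03 CPM in the control libraries, and 3.33, 1.44, 1.58, 3.94 and 4.02 CPM in those labelled *Adipo-HuR-/-*. The groups did not overlap, but reads that match several transcripts had been divided before deposition, so the shares are uncertain.

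*Kcng4*, which encodes the modifier Kv6.4, stood at 3.37, 3.44 and 0.898 CPM in A7, A8 and A12, and at 3.27, 1.80, 1.42, 3.39 and 1.35 CPM in A24, A25, A26, A29 and A31. Its groups overlapped, with the lowest value in A12. *Kcng2* was not tested and did not exceed 0.230 CPM, and 7 of the 10 modifier genes in all were not tested.

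Of the pore-forming voltage-gated genes, 19 of 30 were tested and 0 passed the threshold by edgeR. An unadjusted p under 0.05 was reached by 4 (21.1%), near the 17.0% of all tested genes. In DESeq2's Wald test 1 (*Kcnh2*) was past the threshold, as were 5.54% of all tested genes. Fitted levels were lower for 7 and higher for 12 of the 19.

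*Kcnh2*, which encodes the delayed rectifier Kv11.1, stood at 0.486, 1.47 and 1.04 CPM in A7, A8 and A12. In A24, A25, A26, A29 and A31 it stood at 1.92, 1.99, 2.71, 3.05 and 4.16 CPM. The groups did not overlap, with A7 lowest and A31 highest, yet the difference did not pass the threshold (log2 fold change 1.49, SE 0.41, adjusted p = 0.108 by edgeR's quasi-likelihood test). With A12 as the lone control against A24, A25, A26 and A29, the log2 fold change was 1.22.

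*Kcnq5*, which encodes Kv7.5, a channel of smooth muscle and neurons, stood at 1.49, 0.911 and 0.668 CPM in A7, A8 and A12, and at 0.226, 0.379, 0.474, 0.587 and 0.469 CPM in A24, A25, A26, A29 and A31. The groups did not overlap, but A12 and A29 lay close to each other (log2 fold change -1.22, SE 0.39, adjusted p = 0.151 by edgeR), and A24 and A25 held 4 and 8 counts. On the TPM scale its groups overlapped, with the highest level, 0.732, in A29. Without A7, A8 and A31 the log2 fold change was -0.63. Its relative *Kcnq1* lay between 0.356 and 1.27 CPM, with groups that overlapped.

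*Kcna5*, which encodes Kv1.5, spanned a wide range in the libraries labelled *Adipo-HuR-/-*. It stood at 8.76, 6.35 and 8.86 CPM in A7, A8 and A12, and at 10.1, 17.2, 14.8, 7.33 and 3.45 CPM in A24, A25, A26, A29 and A31. All 3 controls lay within the range of the others (log2 fold change 0.40, SE 0.43, adjusted p = 0.690 by edgeR), and with the *Acta1* and *Ckm* covariate the log2 fold change was -0.29. *Kcna3*, a channel of lymphocytes, did not exceed 0.0757 CPM and was not tested.

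**Figure D3:**
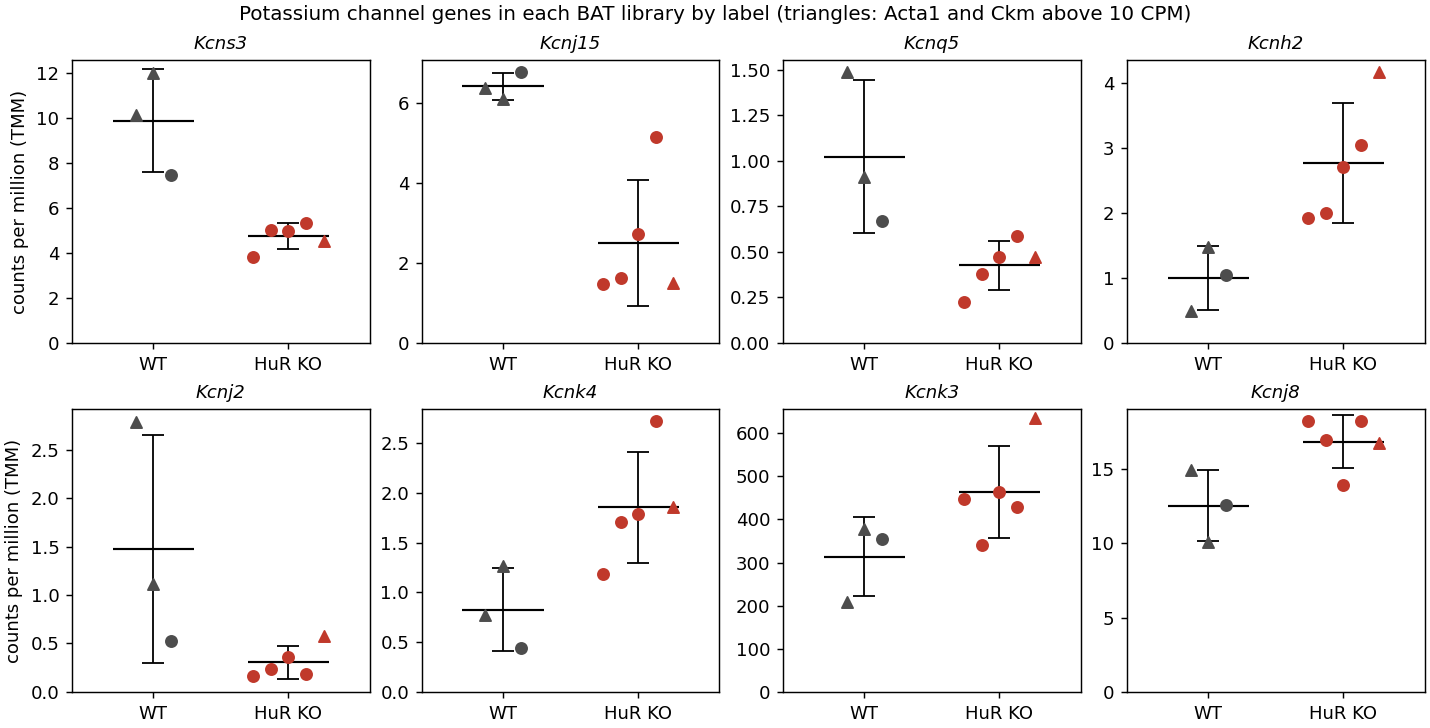
Level of 8 potassium channel genes in each library (y axes, TMM-scaled CPM from 0), control against *Adipo-HuR-/-* labels, with bars for the mean and SD (n = 3 and n = 5). Triangles mark A7, A8 and A31, which carried *Acta1* and *Ckm*, and the groups did not overlap for *Kcns3*, *Kcnj15*, *Kcnq5* and *Kcnh2*.

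Among the accessory subunits, which alter the gating or traffic of pores, 8 of 17 were tested and 0 passed by edgeR. An unadjusted p under 0.05 was reached by 0 (17.0% of all tested genes), and 0 were past the threshold in DESeq2's Wald test (5.54% of all tested genes). *Kcnab3*, a cytoplasmic beta subunit, lay between 0.971 CPM in A7 and 3.04 CPM in A8, so that the control libraries spanned all others. *Kcne4* lay between 0.228 CPM in A8 and 1.21 CPM in A7. *Kcne3* held 52, 8 and 1 counts in A7, A8 and A12, and 10, 5, 17, 12 and 10 counts in A24, A25, A26, A29 and A31. Both the highest and the lowest CPM of *Kcne3* were in control libraries.

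Of the inward rectifiers, 7 of 15 were tested and 0 passed by edgeR. An unadjusted p under 0.05 was reached by 3 (42.9%), against 17.0% of all tested genes. *Kcnj15* and *Kcnj2* were past the threshold in DESeq2's Wald test, as were 5.54% of all tested genes. Shares of so few genes are not read as a result about this role. *Kcnj15*, which encodes Kir4.2, stood at 6.38, 6.10 and 6.79 CPM in A7, A8 and A12. In A24, A25, A26, A29 and A31 it stood at 1.47, 1.61, 2.73, 5.15 and 1.499 CPM. Controls lay close together with or without muscle RNA, and all 5 others were lower, A29 the least so. On the TPM scale the groups overlapped, with 1.10 in A8 and 1.41 in A29. The difference did not pass the threshold (log2 fold change -1.35, SE 0.40, adjusted p = 0.126 by edgeR's quasi-likelihood test). With A12 as the lone control against A24, A25, A26 and A29 it was -1.28 on the log2 scale.

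*Kcnj8* and *Kcnj11* encode Kir6.1 and Kir6.2, the pores of ATP-sensitive channels, the former common in pericytes and vascular smooth muscle. *Kcnj8* stood at 14.96, 10.1 and 12.6 CPM in A7, A8 and A12, and at 18.3, 16.98, 13.9, 18.3 and 16.7 CPM in A24, A25, A26, A29 and A31. Only A26 fell within the control range (log2 fold change 0.42, SE 0.17, adjusted p = 0.240 by edgeR). *Kcnj11* stood at 7.19, 5.49 and 3.59 CPM in the controls and at 3.61, 5.74, 12.4, 8.67 and 8.34 CPM in the others, in the same order of libraries. Its groups overlapped (log2 fold change 0.53, SE 0.37, adjusted p = 0.513 by edgeR).

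*Kcnj2*, which encodes the strong rectifier Kir2.1, had the lowest log2 fold change of the 48 tested genes and did not pass the threshold. It stood at 2.78, 1.11 and 0.522 CPM in A7, A8 and A12, and at 0.169, 0.237, 0.356, 0.189 and 0.575 CPM in A24, A25, A26, A29 and A31. A31 exceeded A12, so the groups overlapped, and the 3 libraries with *Acta1* and *Ckm* were the highest of the 8 (log2 fold change -2.20, SE 0.56, adjusted p = 0.0970 by edgeR). Without A12 the adjusted p of edgeR was 0.0494, past the threshold, but the log2 fold change was -1.35 without A7 (adjusted p = 0.308), -0.71 without A7 and A8 (adjusted p = 0.651) and -1.08 without A31 as well (adjusted p = 0.527). The part of muscle RNA in this difference was not tested.

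K2P leak channels carry background current and make up most of the potassium channel RNA here through *Kcnk3*. Of 14 genes 6 were tested, and 0 passed by edgeR. An unadjusted p under 0.05 was reached by 2 (33.3%), against 17.0% of all tested genes. In DESeq2's Wald test 1 (*Kcnk4*) was past the threshold, as were 5.54% of all tested genes. Shares of 6 genes are not read as a result about this role. *Kcnk3*, which encodes TASK-1, stood at 208, 378 and 354 CPM in A7, A8 and A12, and at 448, 340, 463, 429 and 634 CPM in A24, A25, A26, A29 and A31. A25 lay under A8 and A12, so the groups overlapped (log2 fold change 0.56, SE 0.25, adjusted p = 0.290 by edgeR). On the TPM scale, which uses the library total, *Kcnk3* stood at 94.3, 93.2 and 130 in the controls and at 144, 164, 184, 160 and 265 in the others. The groups did not overlap on that scale, and without TMM factors the log2 fold change was 0.82, of which the shift of all genes was 0.23. With A12 as the lone control against A24, A25, A26 and A29 it was 0.25.

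*Kcnk4*, which encodes the mechanosensitive channel TRAAK, stood at 0.777, 1.27 and 0.439 CPM in A7, A8 and A12. In A24, A25, A26, A29 and A31 it stood at 1.18, 1.71, 1.79, 2.73 and 1.86 CPM. A24 lay under A8, so the groups overlapped (log2 fold change 1.18, SE 0.40, adjusted p = 0.166 by edgeR). On the TPM scale they did not, with at most 0.731 in the controls and at least 0.808 in the others. That scale uses no TMM factors, and without these the log2 fold change of *Kcnk4* was 1.46, of which the shift of all genes was 0.23. With A12, its lowest library, as the lone control, the log2 fold change was 2.09 (adjusted p = 0.190 by edgeR), and 2.09 without A31 as well (adjusted p = 0.282). *Kcnk2*, which encodes TREK-1, lay between 2.10 and 2.69 CPM in the controls and between 0.806 and 2.27 CPM in the others (log2 fold change -0.54, SE 0.33, adjusted p = 0.444 by edgeR).

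Calcium-activated channels were tested for 5 of the 8 genes of this role, and 0 passed by edgeR. An unadjusted p under 0.05 was reached by 0 (17.0% of all tested genes), and 0 were past the threshold in DESeq2's Wald test (5.54% of all tested genes). *Kcnn1*, which encodes the small-conductance channel SK1, lay in a narrow range, with 6.49, 8.78 and 7.19 CPM in A7, A8 and A12 and 7.61, 7.64, 7.76, 7.16 and 8.46 CPM in A24, A25, A26, A29 and A31. All 5 of the latter lay within the control range (log2 fold change 0.05, SE 0.16, adjusted p = 0.915 by edgeR). *Kcnn4*, an intermediate-conductance channel, lay between 0.146 and 0.680 CPM, with both ends in control libraries.

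DESeq2's Wald test on the same counts called 823 of 14851 genes (5.54%) and 5 of the 48 potassium channel genes (10.4%). These were *Kcns3* (adjusted p = 0.000165), *Kcnh2* (adjusted p = 0.00767), *Kcnj2* (adjusted p = 0.0106), *Kcnj15* (adjusted p = 0.0232) and *Kcnk4* (adjusted p = 0.0467). edgeR's likelihood ratio test called 657 genes (4.42%) and 4 potassium channel genes (8.33%), the same without *Kcnk4*. The number of potassium channel genes past the threshold thus differed with the test.

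Some potassium channel genes were higher in the control libraries that carry *Acta1* and *Ckm* than in A12. A library was taken to carry muscle RNA where both genes exceeded 100 CPM, which held for A7 and A8, and a gene was counted where the lower of these was at least 2 times A12 with at least 10 counts in some library. As no library labelled *Adipo-HuR-/-* exceeded 100 CPM, the rule could be applied to the control libraries alone. It took 12 of the 94 genes: *Kcna7*, *Kcnc1*, *Kcnc4*, *Kcne3*, *Kcng4*, *Kcnj2*, *Kcnj10*, *Kcnj12*, *Kcnj13*, *Kcnma1*, *Kcnn2* and *Kcnv2*. Since A7 and A8 differ from A12 by choice, their levels are a description with no test. How many of all genes met this rule was not counted, so 12 of 94 is not read as a result about potassium channel genes. The rule does not show that a gene follows muscle RNA, as *Kcnv2* and *Kcnj10* were highest in A26 and *Kcnn2* in A25, where neither *Acta1* nor *Ckm* was above 0.395 CPM.

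*Kcnc1*, which encodes Kv3.1, stood at 1.28, 0.532 and 0.0209 CPM in A7, A8 and A12, and at 0.00, 0.0474, 0.0593, 0.0568 and 0.151 CPM in A24, A25, A26, A29 and A31. A31 was the highest of its group, and with a level of 10 CPM in place of 100 CPM, chosen after seeing the data so that A31 counted, *Kcnc1* was the 1 gene that met the rule in both groups. *Kcnc4*, which encodes the skeletal muscle channel Kv3.4, stood at 2.23, 0.835 and 0.104 CPM in the controls and at 0.00, 0.142, 0.267, 0.398 and 0.454 CPM in the others. A24 had 0 counts, which at this depth allows up to 0.169 CPM.

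*Kcnj12*, which encodes Kir2.2, held 98, 28 and 0 counts in A7, A8 and A12, and 3, 3, 9, 12 and 22 counts in A24, A25, A26, A29 and A31. A31 was the highest of its group. *Kcna7*, which encodes the muscle channel Kv1.7, stood at 1.78, 1.27 and 0.209 CPM in the controls and between 0.621 and 0.949 CPM in the others. A31 was the lowest of its group, and all 5 of that group lay between A12 and the other 2 controls.

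*Kcnma1*, the large-conductance calcium-activated channel of smooth muscle and other cells, stood at 0.858, 0.329 and 0.0627 CPM in A7, A8 and A12 and did not exceed 0.469 CPM, in A31, among the others. *Kcnn2* stood at 0.518, 0.430 and 0.0418 CPM in the controls and between 0.0741 and 0.617 CPM in the others. *Kcnj10* lay between 0.00 and 0.356 CPM in all libraries, *Kcnj13* did not exceed 0.210 CPM and *Kcnv2* did not exceed 0.207 CPM. For 5 of the 12 genes (*Kcnc1*, *Kcnc4*, *Kcnj2*, *Kcnj12* and *Kcnma1*) A31 was the highest library labelled *Adipo-HuR-/-*, and for the other 7 it was not. The share of all genes with A31 highest was not counted, so 5 of 12 is not read as a result. *Kcns3*, *Kcnk3*, *Kcnj15* and *Kcnh2* were not among the 12 genes.

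Other potassium genes outside the naming rule comprised 23 genes for regulatory subunits, intracellular channels, HCN channels and cation-chloride transporters, of which 17 were tested. Fitted levels were lower for 7 and higher for 10, and 0 passed by edgeR. An unadjusted p under 0.05 was reached by 3 (17.6%), near the 17.0% of all tested genes. Past the threshold were 1 (*Tmem38a*) in DESeq2's Wald test and 2 (*Tmem38a* and *Slc12a3*) in edgeR's likelihood ratio test. These tests called 5.54% and 4.42% of all tested genes. *Tmem38a*, which encodes the TRIC-A channel of the muscle sarcoplasmic reticulum, stood at 25.9, 22.4 and 3.49 CPM in A7, A8 and A12, and at 2.09, 4.70, 2.96, 3.09 and 5.28 CPM in A24, A25, A26, A29 and A31. Its level followed *Acta1* and *Ckm* in the controls (log2 fold change -2.25, SE 0.52, adjusted p = 0.0772 by edgeR), and without A7 and A8 the log2 fold change was 0.06. Without A12, edgeR's adjusted p of *Tmem38a* was 0.00573, past the threshold, and over all libraries left out in turn it reached up to 0.203.

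*Slc12a7*, which encodes the potassium-chloride cotransporter KCC4, stood at 45.4, 48.3 and 37.7 CPM in A7, A8 and A12, and at 33.8, 80.3, 106, 85.4 and 75.5 CPM in A24, A25, A26, A29 and A31. A24 was below all controls and the other 4 were above them (log2 fold change 0.80, SE 0.30, adjusted p = 0.215 by edgeR). Over the libraries left out in turn, edgeR's adjusted p lay between 0.0490, without A24, and 0.475. *Slc12a3* did not exceed 0.259 CPM in the controls and lay between 0.338 and 0.667 CPM in the others, without overlap (log2 fold change 1.498, SE 0.46, adjusted p = 0.135 by edgeR). It held few counts, with 16, 6 and 4.5 in A7, A8 and A12, and 6 and 9 in A24 and A25. Groups apart in the higher direction were found for 1 of the 17 tested genes (5.88%), near the 5.37% of all tested genes. *Abcc9*, the sulfonylurea receptor that joins *Kcnj8* in vessels, lay between 18.0 and 49.5 CPM, and *Abcc8*, its pancreatic relative, between 0.522 and 3.36 CPM.

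HuR is known to bind AU-rich stretches in the 3′ UTR of mRNAs, so the pentamer ATTTA was counted in the longest annotated 3′ UTR of each gene, on the transcribed strand, where that had at least 300 bases. It was present in 32 of 47 tested potassium channel genes (68.1%) and in 76.3% of 12401 tested genes, with a median density of 0.994 and 1.35 per kb. In the last 300 bases, a window of the same length for all, 44.7% and 42.7% held it. *Kcns3* had 3 such pentamers in 1019 bases, and *Kcnj15* had 7 in 3531 bases, *Kcnq5* 19 in 3760 bases and *Kcnh2* 1 in 411 bases. The sites of *Kcns3*, the gene past the threshold, and the *Kcnh2* site, in the gene whose groups lay apart in the higher direction, are given with the pentamer in capitals, from GENCODE M21 transcripts on GRCm38. The longest 3′ UTR of *Kcns3* belongs to ENSMUST00000055673.1, which held between 5.98% and 35.9% of its counts in a library. A match is a description of these letters, and binding of HuR was not measured.
Kcns3 site 1, minus strand, chr12:11091117-11091141: tcaaaaaatcATTTAattctcaggg
Kcns3 site 2, minus strand, chr12:11091001-11091025: ttgttctgaaATTTAttttttacaa
Kcns3 site 3, minus strand, chr12:11090933-11090957: attgggaaggATTTAttgctacggc
Kcnh2 site 1, minus strand, chr5:24319696-24319720: cttttctgctATTTActgctcttat

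The annotation places genes on the opposite strand within many potassium channel loci, among them *Kcns3*, the gene past the threshold, *Kcnk3*, *Kcnj15*, *Kcnq5* and *Kcnh2*. The opposite-strand genes at these named loci were not among the counted symbols. Whether the counting used the strand is not given in the sources used here, so reads of such a pair cannot be told apart.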

How the data were processed

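RNA of BAT from 8 mice was sequenced, and the authors deposited estimated counts per transcript, not normalized. Reads were mapped by the authors in CLC Genomics Workbench, and whether that program wrote these counts is not given in the sources used here. Counts of 105129 transcripts were summed by gene symbol and rounded. Before rounding, 61.1% of the sums above 0 were within 0.02 of a whole number. Genes passing edgeR's filterByExpr were scaled by TMM and tested by the quasi-likelihood test (edgeR 4.0.16, R 4.3.3), with Benjamini-Hochberg adjustment over 14851 genes. DESeq2 1.42.0 and edgeR's likelihood ratio test were alternatives. TPM used transcript lengths of GENCODE M21 for 103635 transcripts, and at most 0.463% of a library's counts had none. Summed marker lists were compared by exact permutation over 56 splits (scipy 1.17.1). Tables were handled with pandas 2.3.3 and numpy 2.4.6 under Python 3.11.15, list p-values adjusted by statsmodels 0.14.6 and figures drawn by matplotlib 3.10.9. The tests were tried on simulated counts first.

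Members and lists were chosen with earlier results of these data known. Named were genes past the threshold, genes whose groups did not overlap, the 3 highest mean TPM per role, genes higher in A7 and A8 than in A12, and *Kcnk3*, *Kcnj8*, *Kcnj11*, *Kcnj2*, *Kcnma1*, *Kcnn4*, *Kcna3*, *Kcnq1* and *Kcnq5*. Some genes that this rule takes are not reported here. Alternatives covered scaling, test, filter, the *Acta1* and *Ckm* covariate, and left-out libraries. Leaving out A7, A8 and A31 together, the 10 CPM level and the 1.5 times rule for genes higher in A7 and A8 were chosen after seeing the data. Counting error alone is covered by the floor of 3 counts, as reads are not independent molecules.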

Additional observations from a re-analysis of the deposited data

Results flagged for a closer look

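Among the libraries labelled *Adipo-HuR-/-*, a sample far from the others was sought for 32 genes, by the gap of the extreme library to its neighbour over the range of the group. A31 was far above the others for *Acta1* (ratio 0.994, 54.0 CPM against at most 0.395 CPM) and for *Ckm* (ratio 0.997, 33.2 CPM against at most 0.163 CPM). A24 was far above the others for *Kcne3* (ratio 0.757, 0.564 CPM from 10 counts). Chance alone marks about 1 in 20 groups.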

How the results depend on the processing

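The count of potassium channel genes past the threshold, 1 of 48 (*Kcns3*), and of all genes, 105, changed with the test and the libraries. DESeq2's Wald test gave 5 and 823, edgeR's likelihood ratio test 4 and 657. By edgeR's quasi-likelihood test the counts were 0 of 48 and 121 of 14851 without TMM factors. With the *Acta1* and *Ckm* covariate they were 0 of 48 and 16 of 14851, and without A24 and A25 0 of 49 and 5 of 14598. For fits with A12 as the lone control no counts are given. Leaving out each library in turn gave 0 to 3 potassium channel genes (3 without A12: *Kcns3*, *Kcnj2* and *Kcnc1*) and 10 (without A26) to 190 (without A12) genes in all. DESeq2's size factors, no filter and at least 10 counts in every library kept *Kcns3* past the threshold. Fits with libraries left out had fewer samples, and the cause of these differences was not tested.

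Of 544 alternative values of the log2 fold change of 31 named genes, 471 kept their direction and side of the threshold, 12 were no longer past it, 13 were newly past it and 48 turned direction. Without TMM factors, they turned to 0.02 (*Kcng4*), 0.14 (*Kcnab3*) and 0.13 (*Kcnj10*). With the covariate, they turned to -0.29 (*Kcna5*), 0.42 (*Kcng4*), 0.05 (*Kcnab3*), 1.06 (*Kcne3*), 0.66 (*Kcna7*), 0.14 (*Kcnc4*), 0.33 (*Kcnj10*), 1.01 (*Kcnj12*) and 0.84 (*Kcnma1*). Without A7 and A8 they turned to 1.31 (*Kcng4*), 0.05 (*Kcnab3*), 3.53 (*Kcne3*), 1.83 (*Kcna7*), 1.37 (*Kcnc4*), 0.99 (*Kcnj10*), 1.88 (*Kcnma1*) and 0.06 (*Tmem38a*). Without A31 as well they turned to 1.45 (*Kcng4*), 3.69 (*Kcne3*), 0.08 (*Kcne4*), 1.89 (*Kcna7*), 1.08 (*Kcnc4*), 1.07 (*Kcnj10*) and 1.40 (*Kcnma1*), and without A24 and A25 to -0.38 (*Kcnn2*) and 0.14 (*Kcnj10*). Over the libraries left out in turn, genes that turned ranged from -0.61 to 0.06 (*Kcng4*), -0.47 to 0.38 (*Kcnab3*), -0.98 to 1.30 (*Kcne3*), -0.86 to 0.39 (*Kcne4*), -0.05 to 0.18 (*Kcnn1*), -0.25 to 1.05 (*Kcnn4*), -0.48 to 0.55 (*Kcnn2*), -1.02 to 0.03 (*Kcna7*), -0.43 to 0.15 (*Kcnj10*), -1.31 to 0.31 (*Kcnma1*) and -0.56 to 0.10 (*Kcnq1*). *Kcna7*, *Kcnc4*, *Kcne3*, *Kcng4*, *Kcnj10*, *Kcnj12* and *Kcnma1* were chosen for A7 and A8 being above A12, so that choice favours their turn when A7 and A8 are left out or adjusted for, and the cause of the other turns was not tested. The fitted values of *Kcnj12* without A7 and A8 also turned but are neither counted here nor given, as A12 held 0 counts and they depend on the prior count. For *Kcne3*, *Kcnma1* and *Kcnc4*, A12 held 1, 3 and 5 counts, so their values in the fits without A7 and A8 rest on few counts. The rule for genes higher in A7 and A8 took 12 genes, and 16 at 1.5 times in place of 2 times. At 10 CPM in place of 100 CPM it took 1, since A31 then had to exceed the rest of its group as well. Depth limits the low genes most in A24 and A25, where 3 counts equal 0.169 and 0.142 CPM.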
